A study of Mus musculus with 8 samples.

Results

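The genes described here are Nr4a1, Nr4a2 and Nr4a3, Egr1, Egr2 and Egr3, and Cd69, which T cells switch on within a short time of antigen receptor engagement. They were chosen by name as the rows of the deposited count table that carry these symbols, and 7 of the 27594 genes in the table matched. All 7 passed the filter on low counts, which left 14540 genes in the tests. Regulatory T (Treg) cells of C57BL/6 mice aged 6 to 8 weeks were sorted by flow cytometry out of spleen and peripheral lymph nodes, and RNA was sequenced in 8 libraries. The gate took CD4+YFP+ cells with low CD44 as resting Treg (rTreg) cells and those with high CD44 as activated Treg (aTreg) cells, among other surface criteria. WT cells came from Foxp3-YFP-Cre mice and Foxp1-deficient cells from Foxp1fl/fl Foxp3-YFP-Cre mice, so that every group carried the YFP-Cre allele, which is expressed from the Foxp3 locus. Each genotype gave rTreg and aTreg cells, which made 4 groups, each with 2 libraries numbered 1 and 2 in the labels. The labels do not say whether the 2 numbers are separate mice or pools of mice, so the p-values measure a spread between these libraries. In the main fit it is the spread that remains after the difference between the 2 numbers is fitted.

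Antigen receptor signalling raises calcium and activates the ERK kinase cascade, and these signals act on promoters that are already poised. The Nr4a genes encode orphan nuclear receptors (NUR77, NURR1 and NOR1) that bind DNA without a known physiological ligand and, in Treg cells, contribute to Foxp3 expression. The Egr genes encode zinc-finger transcription factors; Egr2 and Egr3 are known for the restraint and anergy programme of T cells, and their activity is checked by the co-repressors Nab1 and Nab2. Cd69 encodes a surface lectin that binds the sphingosine-1-phosphate receptor S1PR1 and holds lymphocytes in tissue.

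In the GENCODE M21 annotation of GRCm38, Nr4a1 lies on chromosome 15 from 101254269 to 101274795 (plus strand), Nr4a2 on chromosome 2 from 57106830 to 57124003 (minus strand) and Nr4a3 on chromosome 4 from 48045153 to 48086447 (plus strand). Egr2 lies on chromosome 10 from 67535475 to 67542188 (plus strand), Egr3 on chromosome 14 from 70077203 to 70082614 (plus strand) and Cd69 on chromosome 6 from 129267325 to 129275436 (minus strand). The promoters of 4 of the 7 genes (Nr4a1, Nr4a2, Nr4a3 and Egr2) were matched in the RefSeq promoter table for GRCm38.p6. That of Egr1 was left out of the search, and none was matched for Egr3 and Cd69. The 4 promoters are shown because cyclic AMP response elements (CREs), which bind CREB and ATF family factors, are the known inducible elements of Nr4a promoters. Capitals mark the CRE core TGACG on either strand (CGTCA where it lies on the opposite strand); each sequence is written 5′ to 3′ on the strand of its gene and ends just before the transcription start site, except that of Nr4a3, which ends before the first annotated exon.
Nr4a1 (chr15:101266596-101266845, plus strand): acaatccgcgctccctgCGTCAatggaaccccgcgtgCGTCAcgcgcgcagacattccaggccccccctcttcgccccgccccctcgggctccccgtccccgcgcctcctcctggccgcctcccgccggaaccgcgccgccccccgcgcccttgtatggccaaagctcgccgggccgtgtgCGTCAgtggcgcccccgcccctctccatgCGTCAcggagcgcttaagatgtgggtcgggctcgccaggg
Nr4a2 (chr2:57124004-57124253, minus strand): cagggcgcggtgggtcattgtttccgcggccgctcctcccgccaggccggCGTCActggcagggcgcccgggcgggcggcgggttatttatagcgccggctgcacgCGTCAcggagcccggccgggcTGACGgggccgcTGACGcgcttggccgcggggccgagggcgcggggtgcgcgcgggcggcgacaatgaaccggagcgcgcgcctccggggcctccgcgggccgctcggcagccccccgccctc
Nr4a3 (chr4:48045055-48045152, plus strand): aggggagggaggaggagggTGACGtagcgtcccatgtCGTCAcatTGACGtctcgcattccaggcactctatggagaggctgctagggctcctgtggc
Egr2 (chr10:67537619-67537868, plus strand): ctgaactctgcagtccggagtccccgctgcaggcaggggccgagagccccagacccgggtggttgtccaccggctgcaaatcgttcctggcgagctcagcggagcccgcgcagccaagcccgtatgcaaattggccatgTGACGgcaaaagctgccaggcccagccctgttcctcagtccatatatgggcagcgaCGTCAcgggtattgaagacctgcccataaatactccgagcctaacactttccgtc

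The CRE core was found 4 times in the printed stretches of Nr4a1 and Nr4a2, 3 times in that of Nr4a3 and 2 times in that of Egr2. At least 1 core was present in 20.8% of the 32851 promoter windows of 300 bases in the table. The Nr4a1 and Egr2 windows lie within introns of longer annotated transcripts of the same genes. A serum response CArG box was matched 1 time in the Egr2 window, against 1.63% of all windows, and the EGR motif GCGNGGGCG 1 time each in the Nr4a1 and Nr4a2 windows, against 5.55% of all windows. The full CRE TGACGTCA (1.79% of all windows), the NR4A motif AAAGGTCA (1.51%), the AP-1 motif TGANTCA (7.81%) and the forkhead motif TGTTTAC (3.65%) were not matched in the windows of these 4 genes. All motifs were searched on both strands, and the full CRE overlaps its core. A match describes the letters only.

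The libraries held between 6373170 and 15268623 counts, the lowest being Foxp1-deficient rTreg replicate 1. Foxp1 was read at 353 and 384 CPM (counts scaled to a common library size) in WT rTreg libraries, at 342 and 338 CPM in rTreg libraries labelled Foxp1-deficient, at 234 and 230 CPM in WT aTreg libraries and at 126 and 102 CPM in Foxp1-deficient aTreg libraries. The count covers the whole gene, exons outside the floxed part included, so it is no check of the deletion. In the rTreg subset it did not separate the libraries labelled Foxp1-deficient from WT (log2 fold change -0.12, edgeR adjusted p = 0.460), whereas in aTreg cells it fell by 1.03 on the log2 scale (edgeR adjusted p = 0.00194). Foxp3, Cd4, Cd3e, Il2ra and Ikzf2 were detected in all 8 libraries, with a summed level of 2516 to 3513 CPM. The summed level of 5 B cell markers was 8.29 to 10.8 CPM in rTreg and 33.5 to 38.7 CPM in aTreg libraries, and that of 7 myeloid markers was 8.20 and 8.25 CPM in WT rTreg, 16.6 and 10.8 CPM in rTreg labelled Foxp1-deficient, 9.55 and 8.21 CPM in WT aTreg and 26.7 and 7.33 CPM in Foxp1-deficient aTreg libraries. In the rTreg genotype comparison the myeloid markers S100a8, S100a9 and Fcgr3 and the B cell marker Cd22 were called higher from few counts, with 0 to 4 counts in each WT and 6 to 21 counts in each library labelled Foxp1-deficient (edgeR adjusted p = 0.0454, 0.0373, 0.0390 and 0.0487). The part of other cells in the subset and genotype differences below was not tested. In bulk libraries such as these, a lower number of cells expressing a gene and less of its RNA per cell cannot be told apart.

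Among the Nr4a family, Nr4a1 was by far the most abundant transcript. On the FPKM scale, which corrects for transcript length, Nr4a1 held between 78.8% and 95.1% of the summed Nr4a level in the 8 libraries, Nr4a2 between 0.890% and 13.5%, and Nr4a3 between 2.21% and 15.1%. The Egr family was shared more evenly, with 37.8% to 58.9% of the summed FPKM from Egr1, 27.3% to 37.3% from Egr3, 11.9% to 27.2% from Egr2, and at most 1.11% from Egr4, the least expressed relative.

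**Figure D1:**
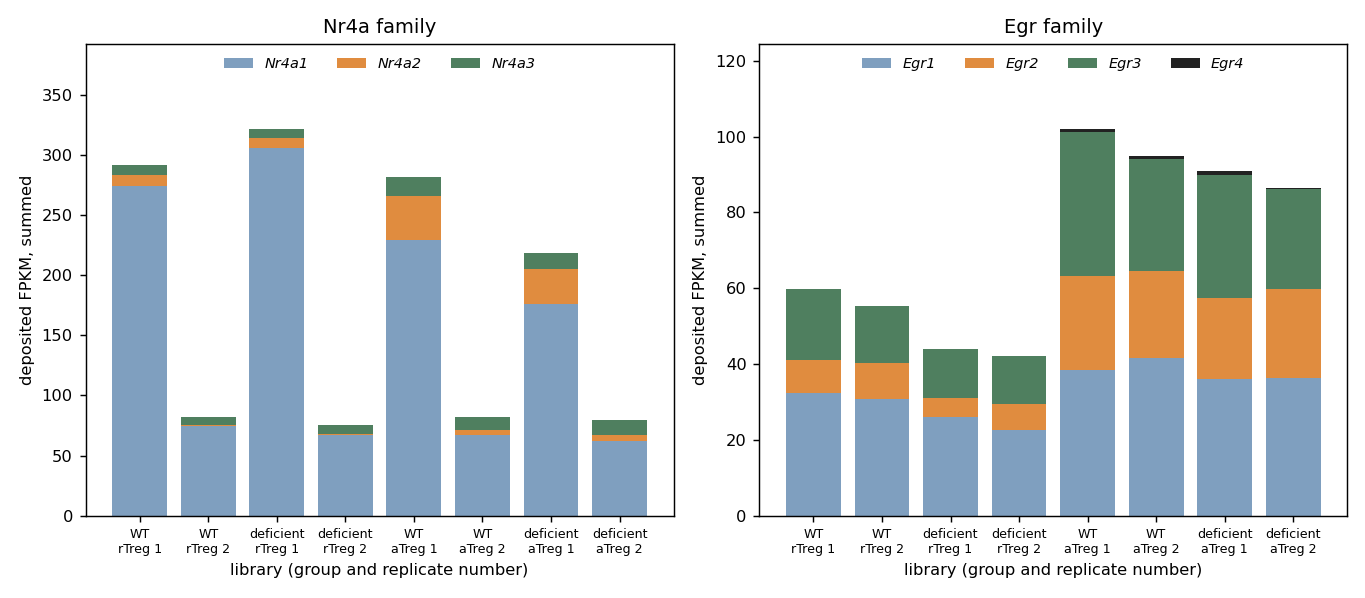
Deposited FPKM of the Nr4a genes (left) and the Egr genes (right), stacked for each of the 8 libraries, labelled by group and replicate number. The Nr4a sum ran from 75.0 to 322 and was higher in every library numbered 1 than in any library numbered 2, while the Egr sum ran from 42.1 to 102 and was higher in every aTreg library than in any rTreg library.

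The levels of each gene across libraries are given below as CPM after TMM normalization, in the order replicate 1 and then replicate 2. Nr4a1 was read at 673 and 189 CPM in WT rTreg, 768 and 173 CPM in the libraries labelled Foxp1-deficient rTreg, 553 and 163 CPM in WT aTreg cells and 422 and 157 CPM in Foxp1-deficient aTreg cells. Within each group, the library numbered 1 was 2.69 to 4.43 times the library numbered 2, and the 4 groups overlapped completely. Nr4a2 was read at 39.5 and 3.38 CPM in WT rTreg, 36.3 and 2.82 CPM in the libraries labelled Foxp1-deficient rTreg, 141 and 16.6 CPM in WT aTreg cells and 116 and 20.1 CPM in Foxp1-deficient aTreg cells. Its library numbered 1 was 5.81 to 12.9 times the library numbered 2, so that rTreg libraries numbered 1 lay above aTreg libraries numbered 2, although within each number the aTreg libraries were the higher ones. Nr4a3 was read at 46.6 and 44.2 CPM in WT rTreg, 43.2 and 43.2 CPM in the libraries labelled Foxp1-deficient rTreg, 96.4 and 62.4 CPM in WT aTreg cells and 76.8 and 72.9 CPM in Foxp1-deficient aTreg cells. All 4 aTreg libraries lay above all 4 rTreg libraries for Nr4a3.

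Egr1, on chromosome 18, encodes the founding EGR factor downstream of ERK. It was read at 143 and 141 CPM in WT rTreg, 118 and 105 CPM in the libraries labelled Foxp1-deficient rTreg, 168 and 182 CPM in WT aTreg cells and 157 and 166 CPM in Foxp1-deficient aTreg cells. Its range over the libraries was narrow, with the aTreg libraries on top and the rTreg libraries labelled Foxp1-deficient at the bottom. The genotypes did not overlap in either subset for Egr1. Egr2 was read at 29.9 and 33.3 CPM in WT rTreg, 18.0 and 24.4 CPM in the libraries labelled Foxp1-deficient rTreg, 81.3 and 76.4 CPM in WT aTreg cells and 70.6 and 81.4 CPM in Foxp1-deficient aTreg cells. The aTreg and rTreg libraries were far apart for Egr2, and within rTreg cells the 2 genotypes did not overlap. With 2 libraries per group, a lack of overlap can arise from the spread between libraries. How many of all genes lack overlap was not counted. Egr3 was read at 26.1 and 22.0 CPM in WT rTreg, 18.5 and 18.6 CPM in the libraries labelled Foxp1-deficient rTreg, 52.3 and 41.2 CPM in WT aTreg cells and 44.5 and 38.0 CPM in Foxp1-deficient aTreg cells. It followed the same order as Egr2, with the genotypes overlapping in aTreg cells only. Cd69 was read at 282 and 115 CPM in WT rTreg, 312 and 90.8 CPM in the libraries labelled Foxp1-deficient rTreg, 289 and 102 CPM in WT aTreg cells and 231 and 75.1 CPM in Foxp1-deficient aTreg cells. Like Nr4a1, Cd69 was 2.46 to 3.43 times higher in the library numbered 1 of every group, and the groups overlapped.

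**Figure D2:**
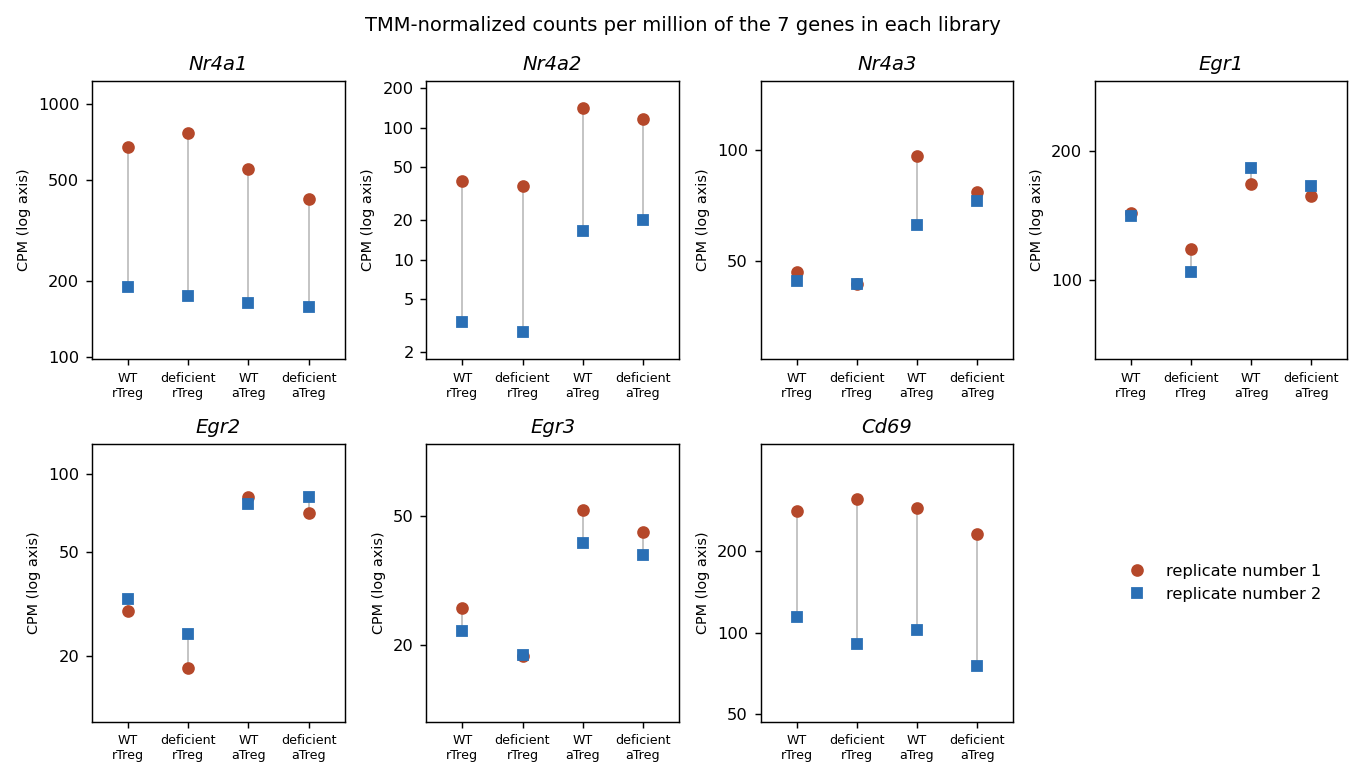
TMM-normalized CPM (log axis, a separate range for each gene) of the 7 genes in the 2 libraries of each group, with replicate number 1 as circles and number 2 as squares joined by a line. Nr4a1, Nr4a2 and Cd69 are split by replicate number in every group, whereas Nr4a3, Egr2 and Egr3 are split by subset.

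By mean level the groups stood in the following order. For Egr2 the means were 78.8 ± 3.50 CPM in WT aTreg, 76.0 ± 7.62 CPM in Foxp1-deficient aTreg, 31.6 ± 2.39 CPM in WT rTreg and 21.2 ± 4.53 CPM in rTreg libraries labelled Foxp1-deficient (SD, n = 2 each). Egr3 kept this order, with 46.7 ± 7.90, 41.2 ± 4.64, 24.0 ± 2.88 and 18.6 ± 0.102 CPM (SD, n = 2 each). In both, the 2 aTreg groups differed by less than the larger of their SDs. For Egr1 the means in this order were 175 ± 10.01, 161 ± 6.13, 142 ± 1.75 and 111 ± 9.52 CPM, and for Nr4a3 79.4 ± 24.1, 74.8 ± 2.76, 45.4 ± 1.73 and 43.2 ± 0.00397 CPM (SD, n = 2 each). The Nr4a2 means were 79.0 ± 88.3, 68.2 ± 68.2, 21.4 ± 25.5 and 19.6 ± 23.7 CPM, so that its SD within a group was about as large as the mean itself. Nr4a1 and Cd69 had means of 290 to 471 CPM and 153 to 201 CPM over the 4 groups, with SDs of 188 to 421 CPM and 110 to 156 CPM. These SDs hold the difference between the replicate numbers, so the groups of Nr4a1, Nr4a2 and Cd69 are compared within the numbers below.

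The first question was whether loss of Foxp1 changes these genes in each subset. None of the 7 genes passed both thresholds (adjusted p under 0.05, change of 1.5-fold or more) in rTreg cells, where 2.90% of all genes tested rose and 2.70% fell. Each p-value comes from the quasi-likelihood test of edgeR, adjusted by Benjamini-Hochberg over all 14540 genes, with the replicate number in the model. Egr2 and Egr1 passed the adjusted p but not the fold threshold. Egr2 was lower by a log2 fold change of -0.55 ± 0.12 (SE) in the libraries labelled Foxp1-deficient (edgeR adjusted p = 0.0276), with -0.73 between the libraries numbered 1 and -0.45 between those numbered 2. Egr1 was lower by -0.36 ± 0.08 (SE; edgeR adjusted p = 0.0294), with -0.28 and -0.43 in the same pairs. Egr3, the third family member, had a log2 fold change of -0.35 ± 0.11 that did not pass (edgeR adjusted p = 0.0798), with -0.49 and -0.24 in the pairs. All 3 Egr genes were thus lower in both pairs, and the 95% intervals were -0.84 to -0.27 for Egr2, -0.54 to -0.17 for Egr1 and -0.60 to -0.10 for Egr3. When 0.1 was added to the FPKM values before the log, Egr2 passed both thresholds (log2 difference -0.61, limma adjusted p = 0.0495). The Nr4a genes and Cd69 had log2 fold changes between -0.17 and 0.05 in rTreg cells, with edgeR adjusted p of 0.708 for Nr4a2, 0.844 for Nr4a3, 0.868 for Nr4a1 and 0.616 for Cd69. For Nr4a2 the 95% interval of -0.77 to 0.42 includes a 1.5-fold fall.

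In aTreg cells, all 7 log2 fold changes were below 0, from -0.38 to -0.04, and none passed either threshold. The median over all genes tested was 0.002, and the share of genes below 0 was not counted. Leaving out 1 library changed the sign of Nr4a1, Nr4a2, Nr4a3 or Egr2 in some cases. The background was 2.37% of genes higher and 1.66% lower. Cd69 had a log2 fold change of -0.38 ± 0.10 (SE; edgeR adjusted p = 0.0754), with -0.32 and -0.44 in the pairs numbered 1 and 2. Nr4a1 stood at -0.21 ± 0.14 and Egr3 at -0.17 ± 0.10 (edgeR adjusted p = 0.413 and 0.322). For Nr4a2, Nr4a3 and Egr2 the pairs numbered 1 and 2 had opposite signs, with -0.28 and 0.27 for Nr4a2, -0.33 and 0.22 for Nr4a3, and -0.20 and 0.09 for Egr2. Egr1 stood at -0.12 ± 0.08 (edgeR adjusted p = 0.415). The difference of the genotype effects between the subsets was tested directly, and no gene of the 7 passed, with 0.186% of all genes higher and 0.144% lower. Egr2 had the largest such difference (log2 0.50 ± 0.16, 95% interval 0.13 to 0.87, edgeR adjusted p = 0.240), with 0.52 and 0.54 within the replicate numbers. For the other 6 genes it lay between -0.29 for Cd69 and 0.24 for Egr1, with edgeR adjusted p of at least 0.429.

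The second question was how the genes differ between activated and resting cells of the same genotype. In WT cells, Nr4a2 and Egr2 were called higher in aTreg cells and none of the 7 lower, at thresholds of an adjusted p under 0.05 and 2-fold, against 9.50% of all genes higher and 2.83% lower. Nr4a2 rose 3.84-fold (log2 fold change 1.94 ± 0.22 SE, edgeR adjusted p = 5.35e-04), with 1.84 and 2.24 within the replicate numbers. Without the replicate number in the model, the Nr4a2 difference was much the same in size (log2 1.88) and was not called (edgeR adjusted p = 0.477). Egr2 rose 2.49-fold (log2 1.32 ± 0.11 SE, edgeR adjusted p = 1.16e-04), with 1.44 and 1.19 within the numbers. Egr3 rose 1.94-fold (log2 0.95 ± 0.10 SE, edgeR adjusted p = 3.37e-04) and Nr4a3 1.72-fold (log2 0.78 ± 0.14 SE, edgeR adjusted p = 0.00490), so that they passed the adjusted p and fell short of 2-fold. Without WT aTreg replicate 2 the estimates were 1.04 for Egr3 and 1.06 for Nr4a3, and both were called. Egr1 differed by 0.30 ± 0.08 (edgeR adjusted p = 0.0231), Nr4a1 by -0.25 ± 0.14 (edgeR adjusted p = 0.216) and Cd69 by -0.07 ± 0.10 (edgeR adjusted p = 0.657), the last with a 95% interval of -0.31 to 0.17.

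In Foxp1-deficient cells, Egr2, Egr3 and Nr4a2 were called higher in aTreg cells and none of the 7 lower, against a background of 11.3% higher and 4.39% lower. Nr4a2 was 4.21-fold higher (log2 2.07 ± 0.23 SE, edgeR adjusted p = 3.41e-04), with 1.68 and 2.76 within the numbers; without the replicate number in the model its log2 difference of 1.91 was not called (edgeR adjusted p = 0.443). Egr2 was 3.52-fold higher (log2 1.82 ± 0.12 SE, edgeR adjusted p = 2.47e-05) and Egr3 2.18-fold higher (log2 1.13 ± 0.10 SE, edgeR adjusted p = 1.33e-04), with the same sign in both numbers. The Egr3 subset difference was not shown to differ between the genotypes (log2 0.17, edgeR adjusted p = 0.684). Nr4a3 (log2 0.78 ± 0.15) and Egr1 (log2 0.54 ± 0.08) passed the adjusted p below 2-fold (edgeR adjusted p = 0.00404 and 0.00133). Nr4a1 and Cd69 were lower in the aTreg libraries, below 2-fold, by a log2 fold change of -0.51 ± 0.14 (edgeR adjusted p = 0.0225) and -0.36 ± 0.11 (edgeR adjusted p = 0.0284). Within the numbers 1 and 2, Nr4a1 differed by -0.86 and -0.14 and Cd69 by -0.43 and -0.27, so most of the Nr4a1 difference came from the libraries numbered 1. The subset differences share the libraries of the genotype comparisons, so their values are set side by side and not counted as separate evidence.

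**Figure D3:**
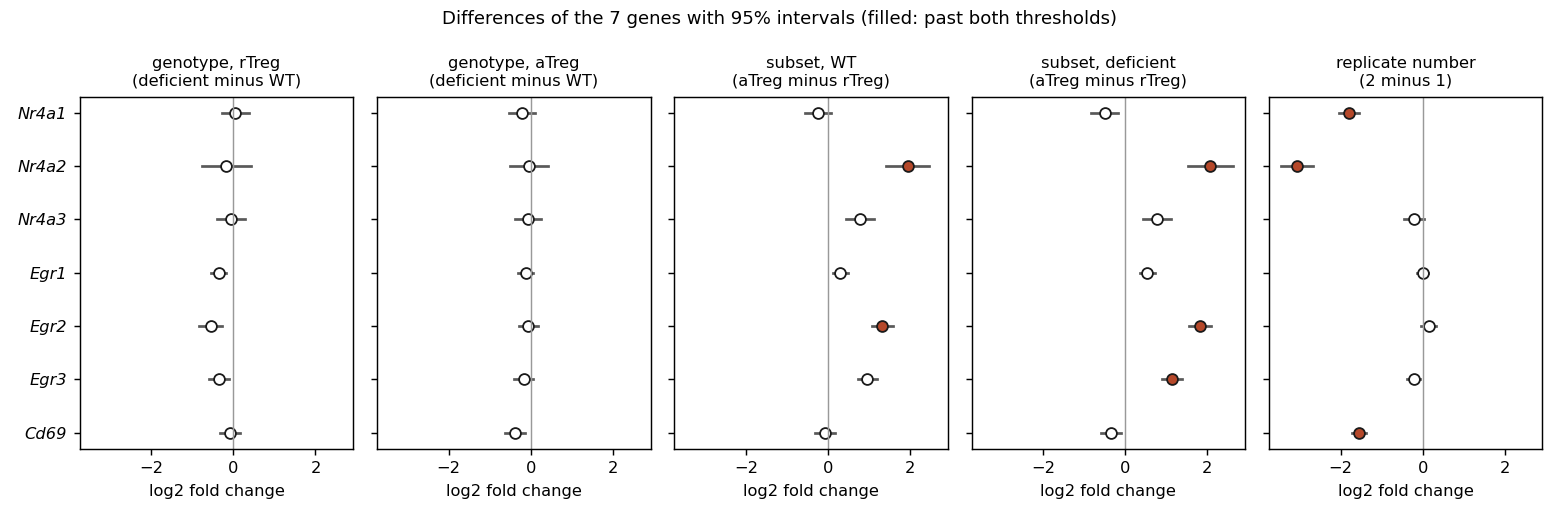
Log2 fold changes (points) with 95% intervals (lines) of the 7 genes from the edgeR fit, for the genotype and subset comparisons and for the replicate number. Filled points passed the adjusted p and the fold threshold of that comparison, which happened for Nr4a2 and Egr2 in both subset comparisons, for Egr3 in Foxp1-deficient cells, and for Nr4a1, Nr4a2 and Cd69 between replicate numbers.

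The third comparison was between the replicate numbers, which divided the libraries of every group in the same way for some of these genes. Of the 7 genes, 3 were called lower in the libraries numbered 2 over the 4 groups and none higher, at 1.5-fold, against 4.72% of all genes lower and 1.41% higher. Nr4a2 was 8.34-fold lower (log2 fold change -3.06 ± 0.16 SE, edgeR adjusted p = 8.89e-05), Nr4a1 3.47-fold lower (-1.79 ± 0.10 SE, edgeR adjusted p = 1.00e-04) and Cd69 2.92-fold lower (-1.55 ± 0.08 SE, edgeR adjusted p = 5.92e-05). For all 3, each of the 4 libraries numbered 1 lay above each of those numbered 2. Nr4a3, Egr3 and Egr2 had log2 differences of -0.21, -0.22 and 0.15 (edgeR adjusted p = 0.191, 0.0711 and 0.230), and Egr1 of 0.00147 (95% interval -0.13 to 0.13). The numbers also differed in sex-linked transcripts, since Xist, which is transcribed from the inactive X chromosome, had 0 to 3 counts in each library numbered 1 and 15098 to 21822 counts in each numbered 2. The study sequenced in 2 rounds, and the labels do not tie a round to a number. Sex, sequencing round, animal and cell handling cannot be told apart between the numbers.

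Other immediate early and stress-response genes were read from a list of 32, of which 14 were called lower and 2 higher in the libraries numbered 2. Over all genes tested, 4.72% were called lower and 1.41% higher. Their median log2 difference was -0.53, against -0.01 over all genes tested. Atf3, a stress-induced bZIP factor, fell by 3.36 on the log2 scale from a low level (edgeR adjusted p = 0.00501), and Maff, a small MAF factor, fell by 3.08 (edgeR adjusted p = 1.22e-04). Fosb, an AP-1 subunit, was read at 172 and 57.3 CPM in WT rTreg, 112 and 31.9 CPM in rTreg labelled Foxp1-deficient, 459 and 176 CPM in WT aTreg and 361 and 98.0 CPM in Foxp1-deficient aTreg cells, in replicate order. Hsph1, a heat shock chaperone, went the other way, from 60.8 to 82.9 CPM in libraries numbered 1 to 190 to 210 CPM in those numbered 2 (log2 1.51, edgeR adjusted p = 9.33e-05). Hspa1b, an inducible HSP70, rose by 1.78 (edgeR adjusted p = 0.0408), unevenly over the groups. In replicate order it was read at 7.55 and 14.7 CPM in WT rTreg and 17.3 and 23.3 CPM in WT aTreg cells. The values were 2.39 and 30.3 CPM in rTreg labelled Foxp1-deficient and 3.35 and 32.7 CPM in Foxp1-deficient aTreg cells. The AP-1 genes Fos, Jun and Junb and the phosphatase genes Dusp1 and Dusp5 were among those that fell, as Nr4a1, Nr4a2 and Cd69 did, and none of the Egr genes was called. In the genotype comparisons, Fosl2 rose while Dusp1, Dusp2 and Fosb fell in rTreg libraries labelled Foxp1-deficient. Fosl2 and Ier3 rose while Dusp1, Dusp6, Fosb and Jun fell in Foxp1-deficient aTreg cells. Ier3 had at most 3 counts in each WT aTreg library (0.064 and 0.33 CPM) and 0.86 to 1.68 CPM in Foxp1-deficient aTreg libraries. It was not called with limma-voom (limma adjusted p = 0.0507). The list medians were -0.14 and -0.21, against 0.003 and 0.002 over all genes tested. Of all genes tested, 2.90% rose and 2.70% fell in rTreg cells, and 2.37% rose and 1.66% fell in aTreg cells. Without the replicate number in the model the genotype calls of the list genes were lost, with edgeR adjusted p from 0.312 for Fosl2 to 0.877 for Dusp1 in rTreg and from 0.145 for Dusp6 to 0.912 for Fosb in aTreg cells. Between subsets, 3 of the 32 rose in WT aTreg cells (Atf3, Fosb and Gadd45b, with log2 2.93, 1.53 and 1.59), and 4 rose (Atf3, Crem, Fosb and Gadd45b) and 1 fell (Fosl1) in Foxp1-deficient aTreg cells. The shares of all genes tested were 9.50% higher and 2.83% lower in WT, and 11.3% higher and 4.39% lower in Foxp1-deficient aTreg cells. Atf3 was at 0 CPM in the rTreg libraries numbered 2, and its estimates ran from 0.74 to 5.46 in WT and from 0.74 to 5.04 in Foxp1-deficient cells over the alternatives. The adjusted p of Atf3 in both genotypes, Gadd45b in WT, and Fosb and Fosl1 in Foxp1-deficient cells was not under 0.05 in every alternative.

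**Figure D4:**
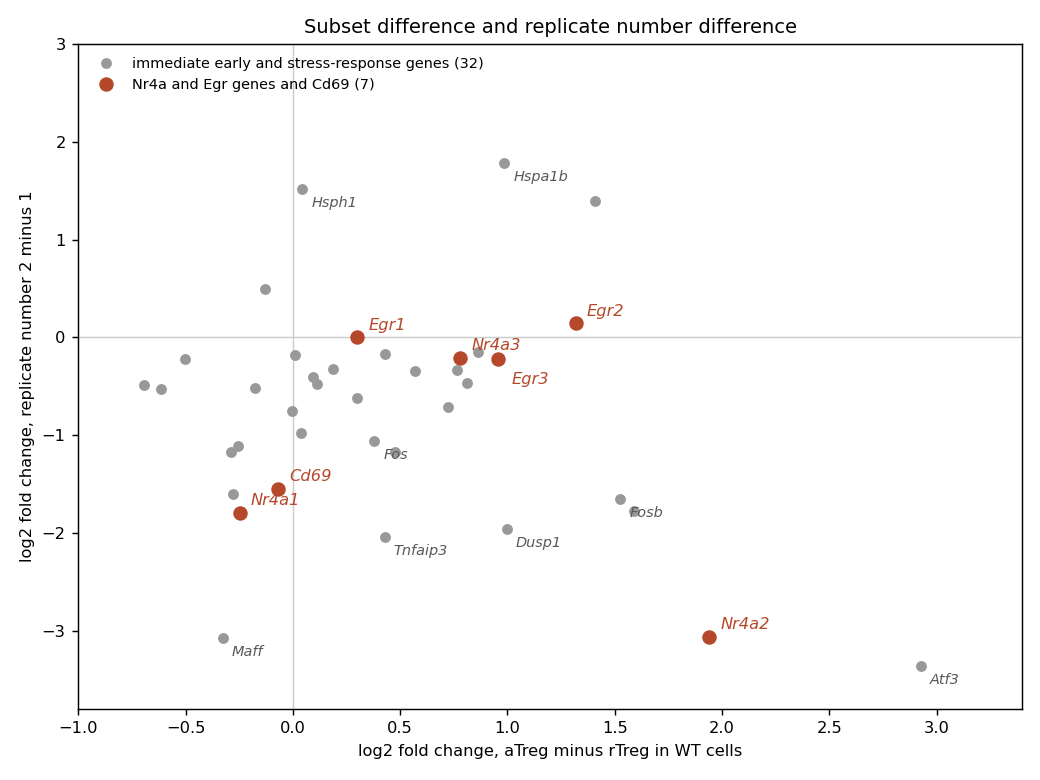
Log2 fold change between aTreg and rTreg in WT cells (horizontal axis) and between replicate numbers 2 and 1 (vertical axis) for the 7 genes (large points) and the 32 immediate early and stress-response genes (small points). Egr1, Egr2, Egr3 and Nr4a3 lie within 0.22 of 0 on the vertical axis, Nr4a1 and Cd69 lie below -1.5 there and near 0 on the horizontal axis, and Nr4a2 is far from 0 on both.

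Over the 8 libraries the genes fell into the same sets by their pattern, given as Pearson's r of log2 CPM and as a description only, since the points share subset, genotype and replicate number. Among the 7, Nr4a1 was most like Cd69 (r = 0.98), Nr4a3 was most like Egr3 (r = 0.96) and Egr2 was close to Egr3 (r = 0.95), whereas Nr4a1 and Egr2 had r = -0.30. The genes outside the 7 with the pattern closest to their mean standardized level were Zfp36l1 and Ctla4 (r = 0.99 and 0.98), followed by Med23, Gtf2a1, Zmym3, Slc48a1, Fosb, Ocrl, G6pc3 and Grb7 (down to r = 0.97), among 8962 genes with a mean of at least 10 CPM.

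Egr4 had 0 and 1 count in the rTreg libraries of each genotype, 16 and 21 counts in WT aTreg and 25 and 7 counts in Foxp1-deficient aTreg cells. Summed over 2 libraries, the ratio of aTreg to rTreg was 36.6 (exact 95% interval 6.17 to 1483, counting error only) in WT and 25.8 (4.31 to 1051) in Foxp1-deficient cells, with edgeR adjusted p of 0.00754 and 0.0163. In aTreg cells its genotype difference of -0.41 ± 0.53 did not pass (edgeR adjusted p = 0.702), nor did its replicate number difference of -0.94 ± 0.52 (edgeR adjusted p = 0.238). The co-repressor Nab2 was lower in the libraries labelled Foxp1-deficient in rTreg cells (log2 -0.52 ± 0.11, edgeR adjusted p = 0.0218) and in Foxp1-deficient aTreg cells (-0.58 ± 0.10, edgeR adjusted p = 0.0185), in each case below 1.5-fold. Its subset differences were 0.17 in WT and 0.10 in Foxp1-deficient cells (edgeR adjusted p = 0.242 and 0.483). Nab1 had genotype differences of 0.06 and 0.33 in rTreg and aTreg cells (edgeR adjusted p = 0.696 and 0.0687) and subset differences of -0.02 and 0.25 (edgeR adjusted p = 0.917 and 0.0561), and neither gene was called between replicate numbers.

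The list of EGR partners and anergy genes held 16 genes including Egr4. In aTreg cells of both genotypes, Cdkn1a, Egr4, Lag3, Nrp1, Rnf128 and Tnfrsf9 rose and Sema7a fell, which made 6 genes higher and 1 lower of the 16. Lag3, an inhibitory receptor, rose by log2 3.72 in WT cells (edgeR adjusted p = 1.66e-04), and Rnf128, the E3 ligase GRAIL, by 4.63 in Foxp1-deficient cells (edgeR adjusted p = 1.17e-04). The Rnf128 estimate starts from few counts (0.29 to 0.32 CPM in rTreg libraries labelled Foxp1-deficient) and ran from 1.49 to 4.88 over the alternatives. Sema7a, a membrane semaphorin, fell by 2.07 and 2.47 in WT and Foxp1-deficient cells (edgeR adjusted p = 0.00104 and 1.81e-04). The shares of all genes tested were 9.50% higher and 2.83% lower in WT aTreg cells. In Foxp1-deficient aTreg cells they were 11.3% higher and 4.39% lower. The median of the 16 was 0.09 in WT and 0.18 in Foxp1-deficient cells, against -0.005 and -0.02 over all genes tested. For genotype, 1 gene was called in each subset, namely Sema7a in rTreg libraries labelled Foxp1-deficient (log2 1.07, edgeR adjusted p = 0.0222) and Nrp1 in Foxp1-deficient aTreg cells (0.68, edgeR adjusted p = 0.0316), both higher. Among all genes tested, 2.90% rose and 2.70% fell by genotype in rTreg cells, and 2.37% rose and 1.66% fell in aTreg cells. Neither Sema7a nor Nrp1 was called for genotype without the replicate number in the model (edgeR adjusted p = 0.0775 and 0.191). No gene of this list was called between replicate numbers, where 4 passed the adjusted p alone. The shares of all genes tested were 4.72% lower and 1.41% higher in libraries numbered 2.

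Of the 14 genes tied to NR4A function in Treg cells, 13 were tested. The shares of all genes called higher in aTreg cells were 9.50% in WT and 11.3% in Foxp1-deficient cells, with medians of -0.005 and -0.02. In WT aTreg cells 7 rose and none fell (median log2 1.13): Batf, Ctla4, Havcr2, Ikzf2, Irf4, Pdcd1 and Tox2; Rxra was added in Foxp1-deficient cells, where 8 rose and none fell (median 1.51). Tox2, a relative of the exhaustion factor TOX, rose by log2 7.65 in WT and 5.84 in Foxp1-deficient cells (edgeR adjusted p = 6.87e-06 and 5.67e-06). The checkpoint receptor Havcr2, with 0 to 2 counts in each rTreg library, rose by an estimated 4.56 and 6.22 (edgeR adjusted p = 0.00361 and 6.53e-04). Ctla4, which encodes the inhibitory receptor CTLA-4, moved with all 3 factors: it was read at 353 and 197 CPM in WT rTreg, 211 and 96.6 CPM in rTreg labelled Foxp1-deficient, 844 and 395 CPM in WT aTreg and 570 and 289 CPM in Foxp1-deficient aTreg cells. It was the only gene of this list called for genotype in rTreg cells (-0.88, edgeR adjusted p = 8.87e-04) and for the replicate number (-1.01, edgeR adjusted p = 8.89e-05), and none was called for genotype in aTreg cells. Among all genes tested, 2.90% rose and 2.70% fell by genotype in rTreg cells, and 2.37% rose and 1.66% fell in aTreg cells. Between replicate numbers 4.72% were lower and 1.41% higher in libraries numbered 2. Without the replicate number in the model, the Ctla4 genotype difference in rTreg cells was -0.84 and was not called (edgeR adjusted p = 0.506).

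The 24 genes that depend on antigen receptor signals in activated Treg cells, 23 of them tested, share Ctla4, Batf, Irf4 and Il2ra with the NR4A list. Of all genes tested, 9.50% rose and 2.83% fell in WT aTreg cells, and 11.3% rose and 4.39% fell in Foxp1-deficient aTreg cells. In WT aTreg cells 15 rose and none fell (median log2 1.46), and in Foxp1-deficient aTreg cells 14 rose and 1, Myc, fell by 1.13 (median 1.51, edgeR adjusted p for Myc = 3.08e-04). The largest estimates were those of the cytokine Il10 (8.71 and 5.91, edgeR adjusted p = 1.50e-05 and 2.71e-05), with 0 to 2 counts in each rTreg library, and of the receptor Tigit (7.38 and 6.09, edgeR adjusted p = 3.73e-05 and 2.30e-05). Cd5, a negative regulator of receptor signalling whose level tracks its strength, had small differences, with subset differences of -0.05 and 0.25 and genotype differences of -0.14 and 0.16 (edgeR adjusted p = 0.585, 0.0135, 0.181 and 0.167), none of them past a fold threshold. By genotype, Cd83 (-0.89, edgeR adjusted p = 0.0126) and Ctla4 fell in rTreg libraries labelled Foxp1-deficient, and Prdm1 (0.65) rose and Cd200 (-0.59) fell in Foxp1-deficient aTreg cells (edgeR adjusted p = 0.0277 and 0.0226). Among all genes tested, 2.90% rose and 2.70% fell by genotype in rTreg cells, and 2.37% rose and 1.66% fell in aTreg cells. Without the replicate number in the model the Prdm1 and Cd200 calls were lost (edgeR adjusted p = 0.171 and 0.120) and Cd83 was still called (edgeR adjusted p = 0.0477). In libraries numbered 2, 6 of the 23 fell and none rose: Bhlhe40, Ccr8, Ctla4, Il10, Nfil3 and Spry1. The shares of all genes tested were 4.72% lower and 1.41% higher. The largest estimates were those of Il10 (-1.86, edgeR adjusted p = 0.00153) and Bhlhe40 (-1.67, edgeR adjusted p = 2.36e-04). Il10 was read at 0 and 0.079 CPM in WT rTreg, in replicate order, and its estimate ran from -1.94 to -0.91 over the alternatives.

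The level of Cd69 can be set beside the genes of the tissue retention axis that its protein acts on. S1pr1, the egress receptor, was read at 651 and 495 CPM in WT rTreg, 536 and 431 CPM in rTreg labelled Foxp1-deficient, 160 and 179 CPM in WT aTreg and 254 and 265 CPM in Foxp1-deficient aTreg cells. It fell in WT aTreg cells by 1.74 on the log2 scale (edgeR adjusted p = 8.61e-05), and in Foxp1-deficient cells its difference of -0.89 passed the adjusted p below 2-fold (edgeR adjusted p = 0.00133). Between genotypes S1pr1 rose in Foxp1-deficient aTreg cells (0.61, edgeR adjusted p = 0.0365) and not in rTreg libraries labelled Foxp1-deficient (-0.24, edgeR adjusted p = 0.272), and the difference of 0.85 between these effects did not pass (edgeR adjusted p = 0.106). Klf2, the factor that drives S1pr1, fell in aTreg cells by 1.61 in WT and 1.13 in Foxp1-deficient cells (edgeR adjusted p = 9.92e-04 and 0.00381) and had genotype differences of -0.24 and 0.24 (edgeR adjusted p = 0.490 and 0.548). Of the 9 genes reported from this list, Cxcr6 and S1pr2 rose and Klf2 and S1pr1 fell in WT aTreg cells, and Cxcr4, Cxcr6 and S1pr2 rose and Ccr7 and Klf2 fell in Foxp1-deficient aTreg cells (medians 0.24 and 0.60). Over all genes tested, 9.50% rose and 2.83% fell in WT, and 11.3% and 4.39% in Foxp1-deficient aTreg cells (medians -0.005 and -0.02). By genotype, Cxcr4 fell by 1.24 in rTreg libraries labelled Foxp1-deficient (edgeR adjusted p = 0.0130), and S1pr1 rose and Ccr7 fell by 1.56 in Foxp1-deficient aTreg cells (edgeR adjusted p for Ccr7 = 5.98e-04). Among all genes tested, 2.90% rose and 2.70% fell by genotype in rTreg cells, and 2.37% rose and 1.66% fell in aTreg cells. Without the replicate number in the model the Cxcr4 and S1pr1 calls were lost (edgeR adjusted p = 0.367 and 0.178) and Ccr7 was still called (edgeR adjusted p = 0.0410). Rgs2 and Cxcr4 fell in libraries numbered 2 (-1.53 and -1.01, edgeR adjusted p = 1.35e-05 and 0.00599), as Cd69 did, whereas S1pr1 and Klf2 had differences of -0.12 and -0.13 (edgeR adjusted p = 0.383 and 0.587). The shares of all genes tested were 4.72% lower and 1.41% higher in libraries numbered 2.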

How the data were processed

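Paired-end RNA-seq reads were trimmed, freed of duplicates with Picard and counted per gene by the authors (HISAT2 2.0.5, HTSeq and mm10 per the submitters' processing notes); the annotation release and strand setting are not given in the sources used here. The authors deposited raw counts and FPKM for 8 libraries (2 per group). The FPKM of a gene was its count divided by the library total and by 1 fixed length per gene.

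Counts were tested with edgeR 4.0.16 in R 4.3.3 (TMM, filterByExpr with a minimum count of 10, quasi-likelihood test, Benjamini-Hochberg adjustment), in 1 fit of 8 libraries that held the group means and the replicate number (the block), as the study paired its analysis. The deviations of same-numbered libraries correlated between groups (r = 0.355 to 0.597). Calls needed an adjusted p under 0.05 and 1.5-fold (genotype, replicate number) or 2-fold (subset); the difference of genotype effects needed the adjusted p alone. Intervals of log2 fold changes come from the edgeR fit and include the spread between libraries that remains after the block is fitted. The exact interval of the Egr4 ratio and the floor of 3 counts (0.192 to 0.478 CPM) cover counting error only. The filter left out 13054 genes.

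Alternatives were no block, limma-voom and limma on log2 FPKM (limma 3.58.1), DESeq2 1.42.0, size factors by median of ratios, testing without a filter, and each library left out. On simulated counts for the rTreg genotype comparison, 81 of 100 genes changed 2-fold and 100 of 100 changed 4-fold were recovered among 14104 genes, and 13 other genes were called. The simulation used the fitted spread, held no other group or replicate number difference, and changed no genes with few counts. Its recovery holds for that setting only. Besides the 7 genes, the text names Egr4, Nab1, Nab2, Cd5, S1pr1, Klf2 and Foxp1, the called genes with the 2 largest changes each way in each list, and the 10 genes of most similar pattern; other names are list genes that were called. One gene of the tissue retention list and one cell type marker are not reported here. The genes and lists were chosen with earlier results of these data known. Fosb, Ctla4, Hsph1, Hspa1b, Atf3, Il10 and Xist levels were added after their values were seen. Promoter sequences are RefSeq's (GRCm38.p6).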

Additional observations from a re-analysis of the deposited data

Results flagged for a closer look

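In the lists set beside the Nr4a and Egr genes, the effect of genotype differed between aTreg and rTreg cells by the direct test for Dusp6 (log2 difference -1.28, edgeR adjusted p = 0.0242) and Ccr7 (-1.08, edgeR adjusted p = 0.0316). Foxp1, the targeted gene and in none of the lists, also passed this test (-0.92, edgeR adjusted p = 0.0477). None of these 3 differences passed without the replicate number in the model (edgeR adjusted p = 0.424, 0.530 and 0.288) or on the FPKM values, and none passed without WT rTreg replicate 2, without either of the rTreg libraries labelled Foxp1-deficient, or without Foxp1-deficient aTreg replicate 2. For 17 genes of the lists, both pairs of libraries moved one way in aTreg cells and the other way in rTreg cells, and the direct test of the difference did not pass. How many of all genes tested move in this way was not counted. With 2 pairs per subset, such signs can arise from the spread between libraries. These were Il10 (-2.80, edgeR adjusted p = 0.382), Fosl1 (-0.70, edgeR adjusted p = 0.658), Myc (-0.44, edgeR adjusted p = 0.345), Btg2 (-0.35, edgeR adjusted p = 0.184), Dgka (-0.20, edgeR adjusted p = 0.266), Itch (0.082, edgeR adjusted p = 0.751), Cd6 (0.22, edgeR adjusted p = 0.326), Cd5 (0.30, edgeR adjusted p = 0.194) and Klf2 (0.48, edgeR adjusted p = 0.551). On the same scale they further included Icos (0.62, edgeR adjusted p = 0.150), Rxra (0.63, edgeR adjusted p = 0.0699), S1pr2 (0.63, edgeR adjusted p = 0.181), Ikzf2 (0.68, edgeR adjusted p = 0.0531), Cxcr6 (0.75, edgeR adjusted p = 0.422), S1pr1 (0.85, edgeR adjusted p = 0.106), S1pr4 (0.89, edgeR adjusted p = 0.0712) and Rnf128 (1.72, edgeR adjusted p = 0.302). Il10 had 0 to 2 counts in each rTreg library, and Rnf128 was read at 0.29 to 0.32 CPM in rTreg libraries labelled Foxp1-deficient. None of the 7 antigen receptor response genes was among these.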

How the results depend on the processing

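The limits are few libraries and the replicate number. With 2 libraries per group, the SE of the 7 genes in the genotype comparisons was 0.08 to 0.26, and log2 changes well above the SE could go undetected. Egr3 in rTreg cells (-0.35 ± 0.11, edgeR adjusted p = 0.0798) and Cd69 in aTreg cells (-0.38 ± 0.10, edgeR adjusted p = 0.0754) did not pass the adjusted p. In the setting that leaves out 1 library of a group, the other library is assumed to vary like the rest. The replicate number was called lower for Nr4a1, Nr4a2 and Cd69 under every alternative that keeps the block, with log2 changes of -1.91 to -1.67, -3.33 to -2.59 and -1.63 to -1.47. Egr2 kept its sign in rTreg cells, from -0.77 to -0.42 with adjusted p from 6.41e-04 to 0.149 over the edgeR, limma and DESeq2 settings, as did Egr1, from -0.48 to -0.24 with adjusted p from 0.00125 to 0.241. The cause of the changes given below was not tested.

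Of the 7 genes, the number called was 1 rather than 0 for genotype in rTreg cells with log2(FPKM + 0.1), the gene being Egr2. For aTreg against rTreg in WT cells it was 1 rather than 2 without the replicate block, Nr4a2 being lost, and 2 to 4 with a library left out, the highest without WT aTreg replicate 2. Without the replicate block, Nr4a2 was also lost in Foxp1-deficient cells, and no other call among the 7 changed.

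Over all genes, 814 were called for genotype in rTreg cells, against 266 without the replicate block, 366 with log2(FPKM + 1), 446 with log2(FPKM + 0.1), 128 with log2(FPKM + 1) and no filter, and 214 (without Foxp1-deficient rTreg replicate 2) to 861 with a library left out. In aTreg cells 586 were called, against 77 without the block, 1035 without the filter on low counts, 129, 107 and 19 with the 3 FPKM settings in the same order, and 117 (without Foxp1-deficient aTreg replicate 2) to 537 with a library left out. For the subset, 1793 were called in WT cells, against 787, 1027 and 772 with the FPKM settings, and 2282 in Foxp1-deficient cells, against 1087, 1393 and 1125. For the difference of genotype effects 48 were called, against 0 without the block (edgeR), 279 with DESeq2, 573 without the filter on low counts, 2, 2 and 1 with the FPKM settings, and 1 (without Foxp1-deficient rTreg replicate 1) to 167 (without WT aTreg replicate 1) with a library left out. For the replicate number 891 were called, against 540 with DESeq2, 402, 490 and 160 with the FPKM settings, and 457 (without Foxp1-deficient rTreg replicate 1) to 702 with a library left out.

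Of the 8 list genes called for genotype in rTreg cells, 1 was still called without the block, 1 to 5 with the FPKM settings, and 1 (without WT rTreg replicate 2) to 8 with a library left out. Of the 12 in aTreg cells, Foxp1 included, 2 were still called without the block, 0 to 4 with the FPKM settings, and 3 (without Foxp1-deficient aTreg replicate 2) to 10 with a library left out.

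Signs changed only for values that were not called. For genotype in rTreg cells, Cd69 was 0.015 without the block, and leaving out 1 library gave Nr4a1 -0.21 to 0.27, Nr4a2 -0.72 to 0.25, Nr4a3 -0.21 to 0.053, Cd69 -0.27 to 0.064, Nab1 -0.056 to 0.16 and Klf2 -0.62 to 0.067. In aTreg cells Nr4a2 was 0.013 with DESeq2, and leaving out 1 library gave Nr4a1 -0.46 to 0.025, Nr4a2 -0.38 to 0.42, Nr4a3 -0.34 to 0.24, Egr2 -0.23 to 0.12, Egr4 -1.50 to 0.37 and Klf2 -0.12 to 0.54. For the subset in WT cells, the FPKM settings gave Nab1 0.034, 0.035 and 0.034 and Cd5 0.00073 in each, and leaving out 1 library gave Cd69 -0.23 to 0.11, Nab1 -0.11 to 0.10 and Cd5 -0.11 to 0.0080; in Foxp1-deficient cells Nab2 ran from -0.028 to 0.30. For the difference of genotype effects, Nr4a3 was 0.010 with limma-voom, 0.015 with DESeq2, 0.014 with median-of-ratios size factors, 0.030 without the filter, and 0.0090, 0.016 and 0.0090 with the FPKM settings; leaving out 1 library gave Nr4a2 -0.29 to 0.67, Nr4a3 -0.27 to 0.31 and Nab2 -0.21 to 0.12. For the replicate number, Egr1 was -0.038, -0.040 and -0.038 with the FPKM settings, and leaving out 1 library gave Egr1 -0.032 to 0.061, Nab2 -0.12 to 0.024 and Klf2 -0.29 to 0.049.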
